A study of Mus musculus with 5 samples.

Results

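RNA-seq of sorted dermal group 2 innate lymphoid cells (dILC2s) was examined for the tumour necrosis factor (TNF) superfamily, the ligands of the TNF family and their receptors. Members were the genes whose symbol is Tnfsf or Tnfrsf followed by a number, together with *Tnf*, *Lta*, *Ltb*, *Ltbr*, *Cd70*, *Cd27*, *Cd40*, *Cd40lg*, *Fas*, *Fasl*, *Eda*, *Edar*, *Eda2r* and *Ngfr*. The rule found 46 of the 47729 genes counted, and these were 18 ligands, 27 receptors and *Tnfsf13os*, an antisense RNA.

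Cells came from the skin of wild-type (WT) mice or of mice labelled *Rag1*-/-, both on the C57BL/6 (B6) background and, by the study's methods, female and 8 to 13 weeks old. *Rag1*-/- mice lack RAG1 in every cell and have no mature T or B cells, and the sorted cells of both groups were not stimulated. The gate held viable CD45+CD90hi skin cells without signal for CD2 or CD3. The 3 WT libraries were pools of cells from 10 mice each. The 2 *Rag1*-/- libraries were pools of 9 mice each in the study's methods, whereas the labels gave 16 *Rag1*-/- mice. The labels named the cell type as type 2 innate lymphoid cells in the WT libraries and as type 3 in the *Rag1*-/- libraries, while the study calls both dILC2s. Values below are given for WT pools 5, 6 and 13 and then for *Rag1*-/- pools 2 and 7, in that order.

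The libraries held 8050562 counts in *Rag1*-/- pool 2 and 32939428 to 39477243 counts in the other 4. A count of 3 was worth 0.373 CPM in pool 2, where CPM is the count of a gene scaled by the library total, and 0.0760 to 0.0911 CPM elsewhere. *Rag1* itself was counted 4, 0 and 5 times in WT and 5 and 48 times in the *Rag1*-/- libraries. The fold change was 3.53 on the log2 scale, with a standard error (SE) of 1.03 and an adjusted p of 0.0866 by the quasi-likelihood test of edgeR, so its transcripts were no lower where the labels give *Rag1*-/-. Every direction below rests on the labels of the libraries. The 30 marker genes shared by all leukocytes summed to 1069, 2512 and 2539 CPM in WT and to 8341 and 7241 CPM in *Rag1*-/-, and 22 of the 29 tested were higher. The 13 ILC2 markers summed to 1336, 2576 and 2225 CPM against 6842 and 4646 CPM, with all 13 detected and 5 higher. The 6 ILC3 markers summed to 45.4 to 59.2 CPM in WT and to 291 and 183 CPM in *Rag1*-/-, and 4 were higher. The 11 keratinocyte markers summed to 25736 to 36098 CPM in WT and to 6670 and 15375 CPM in *Rag1*-/-, and 4 were lower. The 11 T cell markers summed to 59.5 to 121 CPM and to 361 and 306 CPM, and 8 of the 9 tested had positive log2 fold changes, with 3 higher. *Trbc1*, *Trbc2* and *Cd3g* had 154, 80.1 and 68.4 CPM in pool 2 and 126, 73.8 and 64.1 CPM in pool 7. The groups overlapped for *Cd3d*, *Cd3e* and *Trdc*, and *Cd5* was below every WT library in both *Rag1*-/- libraries (-1.48, not called). *Cd8b1* was at 0 in 4 libraries and at 2 counts in pool 7. The 5 NK cell markers summed to 3.87 to 14.2 CPM and to 42.4 and 54.1 CPM, with 1 higher. No B cell, myeloid, mast cell, fibroblast, endothelial or melanocyte marker was called in edgeR.

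TNF superfamily ligands are trimeric proteins that are mostly anchored in the membrane, and their receptors signal after being clustered by them. Receptors without a death domain recruit TRAF adaptors and activate NF-κB and MAP kinases, whereas those with a death domain can also start caspase-dependent killing. On lymphocytes a set of these receptors (OX40, GITR, CD27, CD30, CD137, HVEM and DR3) acts as costimulators, and several of them are known to support ILC2s. In skin, ectodysplasin and its receptor shape hair follicles and glands, and TNF drives inflammation of keratinocytes.

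Of the 46 members, 35 had a promoter in RefSeq (GRCm38.p6), and the 250 bases before each start site were searched on both strands for short motifs. The NF-κB motif GGGNNNNTCC occurred in 16.5% of all promoters and in 9 of 39 member windows. It was found in 4 of the 13 windows of members called higher in *Rag1*-/-. These windows belong to 3 of the 11 members called higher that had a promoter, *Ltb*, *Tnfrsf25* and *Tnfrsf9*. The match of *Tnfrsf9* was only before a start site 13437 bases from the gene start. The other members with a match were not called. Their log2 fold changes were -1.22 for *Eda2r*, -0.81 for *Ngfr*, -0.61 for *Tnfrsf1a*, 0.47 for *Tnfrsf23* and 1.93 for *Fasl*. The AP-1 motif TGANTCA occurred in 6.75% of all promoters, in 6 of 39 windows, and upstream of *Fas* and *Tnfrsf9* among those 11 members. A RUNX motif (TGTGGT) was in 14.1% of promoters and in 3 windows, and a GATA motif (AGATAA) was in 9.99% and in 1 window. These are matches of letters and not measured sites. The upstream bases of 4 members are shown, 5′ to 3′ on the gene's strand, because their calls differ: *Ltb* and *Tnfrsf25* were higher and carry the NF-κB motif (in capitals, here on the opposite strand), *Tnfsf8* had the highest fold change and no NF-κB match, and *Tnfrsf19* was the member called lower. They lie at chr17:35194257-35194438 (+, *Ltb*), chr4:152115684-152115933 (+, *Tnfrsf25*), chr4:63861348-63861534 (-, *Tnfsf8*) and chr14:61046856-61047105 (-, *Tnfrsf19*) of GRCm38, and bases inside annotated exons were left out.
Ltb: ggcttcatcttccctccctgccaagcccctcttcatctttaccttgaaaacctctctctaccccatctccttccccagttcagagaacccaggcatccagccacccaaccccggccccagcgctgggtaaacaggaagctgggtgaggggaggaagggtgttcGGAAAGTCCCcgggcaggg
Tnfrsf25: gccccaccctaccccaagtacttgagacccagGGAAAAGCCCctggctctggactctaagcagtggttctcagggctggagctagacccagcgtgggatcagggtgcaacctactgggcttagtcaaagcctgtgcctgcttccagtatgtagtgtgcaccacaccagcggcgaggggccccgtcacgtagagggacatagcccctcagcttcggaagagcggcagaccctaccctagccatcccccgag
Tnfsf8: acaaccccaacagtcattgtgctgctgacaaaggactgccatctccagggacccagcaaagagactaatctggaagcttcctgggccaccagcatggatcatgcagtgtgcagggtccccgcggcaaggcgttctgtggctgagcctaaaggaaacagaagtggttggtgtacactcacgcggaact
Tnfrsf19: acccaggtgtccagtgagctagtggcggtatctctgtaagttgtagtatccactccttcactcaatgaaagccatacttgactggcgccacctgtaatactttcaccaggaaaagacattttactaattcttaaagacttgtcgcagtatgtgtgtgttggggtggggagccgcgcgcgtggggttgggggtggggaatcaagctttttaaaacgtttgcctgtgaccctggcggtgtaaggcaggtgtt

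In the *Rag1*-/- libraries, 13 of the 44 members tested were higher than in the WT libraries and 1 was lower. Calls required an adjusted p below 0.05 and a log2 fold change beyond 1 in either direction in edgeR. The background of the same calls over all 19011 genes tested was 3.57% higher and 2.16% lower. The 13 were the ligands *Cd70*, *Tnfsf8*, *Tnfsf4*, *Ltb*, *Lta*, *Tnf* and *Tnfsf10* and the receptors *Tnfrsf4*, *Tnfrsf25*, *Tnfrsf9*, *Tnfrsf18*, *Tnfrsf1b* and *Fas*. Costimulatory receptors of lymphocytes and their ligands made up 7 of the 13, and the member called lower was *Tnfrsf19*, a receptor known from hair follicles and epithelia. *Cd40lg* and *Tnfrsf17* had too few counts to be tested.

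Both *Rag1*-/- libraries lay above every WT library in 23 of the 44 members (21.9% of all genes) and below every WT library in 10 (24% of all genes). The groups overlapped in the other 11. The median log2 fold change of the members was 0.85, against 0.02 over all genes tested, and it was positive in 27 members (51.4% of all genes). The calls depended on the scaling and on the number of libraries. Scaled on the 30 leukocyte genes, 0 members were called higher (0.0842% of all genes) and 17 lower (69% of all genes) in edgeR. All 19 with an unadjusted p under 0.05 (73.9% of all genes) were lower, since that scaling moved the median of all genes to -2.16. Standard errors were also larger with that scaling, 0.78 against 0.29 for *Cd70* and 0.69 against 0.32 for *Tnfrsf4*. A missing call there says less than one without that scaling. With any 1 WT library left out, 0 of all 19011 genes tested were called higher or lower in edgeR. The count of 0 members in those fits was therefore not particular to the members. With any 1 WT library or *Rag1*-/- pool 2 left out, 0 members were called in edgeR, and 23 to 25 had an unadjusted p under 0.05, against 18.6%, 19.8% and 20.4% of all genes without WT pools 5, 6 and 13 and 27.5% without pool 2. Without *Rag1*-/- pool 7, 8 were higher (4.4% of all genes) and 5 lower (8.3% of all genes). With DESeq2, 19 members were higher (7.4% of all genes) and 3 lower (7.6% of all genes). In bulk RNA, more cells of a type and more RNA per cell cannot be told apart, and the part of the leukocyte and keratinocyte lists in these results was not tested.

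**Figure D1:**
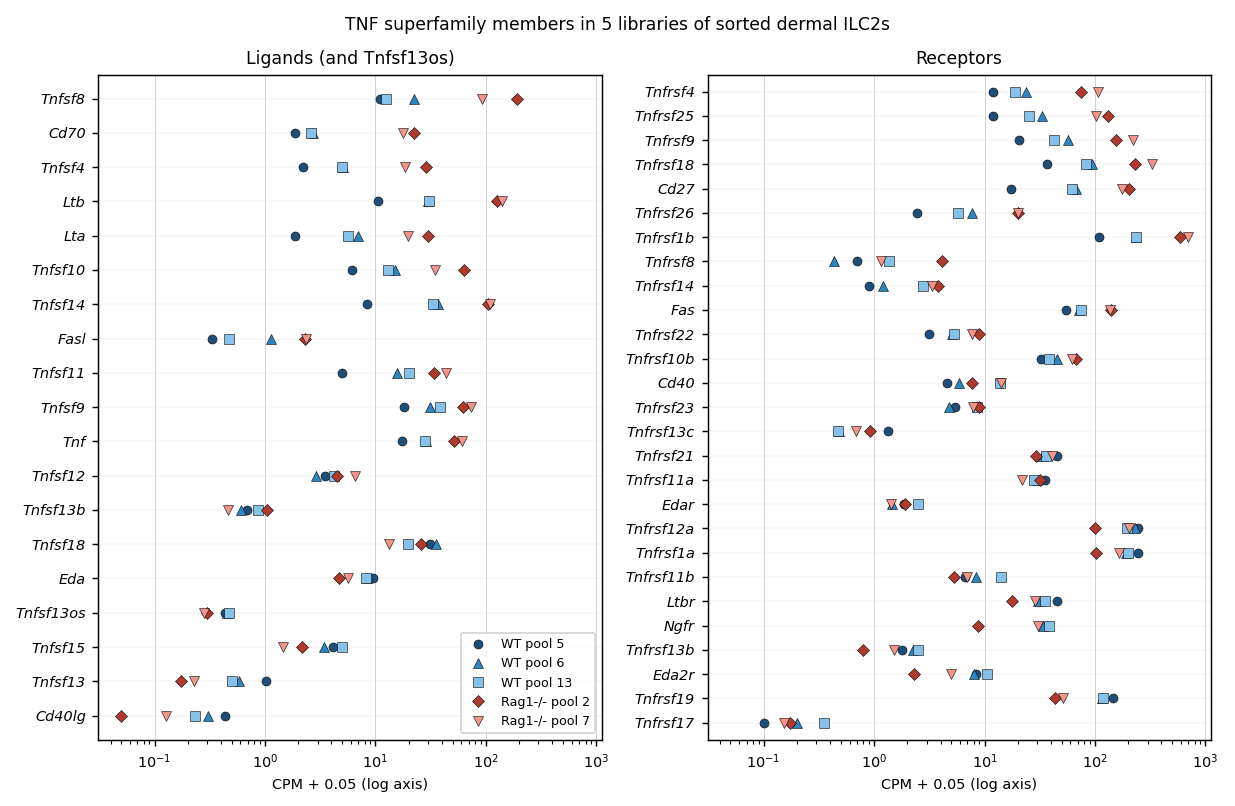
Level of each member in each of the 5 libraries, in CPM plus 0.05 on a log axis, with ligands and *Tnfsf13os* on the left and receptors on the right, in order of fold change. Blue symbols are the 3 WT pools and red symbols the 2 *Rag1*-/- pools. In 23 of the members tested both red symbols lie to the right of every blue one (21.9% of all genes). In 10 they lie to the left (24% of all genes).

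Among ligands, *Tnfsf8* and *Cd70* had the highest fitted fold changes. *Cd70* (ENSMUSG00000019489, chr17:57145997-57149777), the ligand of the costimulator CD27, had 1.80, 2.66 and 2.55 CPM in WT and 22.5 and 17.9 CPM in *Rag1*-/- (70, 105 and 84 against 181 and 696 counts). Its mean was 2.34 ± 0.465 CPM (SD, n = 3) in WT and 20.2 ± 3.25 CPM (SD, n = 2) in *Rag1*-/-, 8.63-fold higher, and its log2 fold change was 3.13 (SE 0.29, adjusted p = 0.0306). The WT libraries stood close together and far below both *Rag1*-/- libraries. *Tnfsf8* (chr4:63831308-63861347), the CD30 ligand, had 10.9, 22.5 and 12.4 CPM in WT and 194 and 92.4 CPM in *Rag1*-/-. The log2 fold change of *Tnfsf8* was 3.24 (SE 0.42, adjusted p = 0.0306), 9.35-fold by the means, and pool 2 was well above pool 7. *Tnfsf4* (chr1:161395409-161418410), which encodes OX40 ligand, had 2.14, 5.09 and 4.92 CPM against 28.7 and 18.5 CPM and a log2 fold change of 2.56 (SE 0.42, adjusted p = 0.0306). In each of these genes the lower *Rag1*-/- library was still above the highest WT library.

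The lymphotoxin and TNF genes, which lie side by side on chromosome 17, were all called higher with TMM scaling. None of the 3 was called when scaled on leukocyte genes, where standard errors were larger. There *Ltb* was at 0.62 (SE 0.69), *Lta* at 0.48 (SE 0.75) and *Tnf* at -0.81 (SE 0.71). *Ltb* (chr17:35194439-35196320), whose product anchors lymphotoxin in the membrane, had 10.5, 29.7 and 30.4 CPM in WT and 126 and 140.5 CPM in *Rag1*-/-, with a log2 fold change of 2.54 (SE 0.43, adjusted p = 0.0309). *Lta* (chr17:35203165-35205351), the soluble partner, had 1.83, 6.97 and 5.65 CPM against 29.7 and 19.6 CPM, with a log2 fold change of 2.37 (SE 0.52, adjusted p = 0.0462). *Tnf* (chr17:35199381-35202007), the prototype of the family, had 17.4, 28.4 and 27.8 CPM against 51.9 and 61.0 CPM. The log2 fold change of *Tnf* was 1.24 (SE 0.26, adjusted p = 0.0428). WT pool 5 was the lowest library for all 3 genes, and the groups did not overlap in any of them.

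*Tnfsf10* (chr3:27317028-27342427) encodes TRAIL, which kills through death receptors. It had 6.11, 15.0 and 12.96 CPM in WT and 62.9 and 34.4 CPM in *Rag1*-/-, and its log2 fold change was 2.11 (SE 0.41, adjusted p = 0.0369). The spread between the *Rag1*-/- libraries was wide here, but pool 7 was still well above the highest WT library.

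A second set of ligands had groups apart and missed the threshold of the adjusted p-value in edgeR. *Tnfsf14*, which encodes LIGHT, the ligand of HVEM and of the lymphotoxin β receptor, had 8.27, 36.7 and 33.2 CPM in WT and 104 and 109 CPM in *Rag1*-/-, with a log2 fold change of 2.06 (SE 0.55, adjusted p = 0.0697). *Tnfsf9*, the ligand of CD137, had 18.3, 31.0 and 38.2 CPM against 62.4 and 73.3 CPM and a log2 fold change of 1.26 (SE 0.31, adjusted p = 0.0608). *Tnfsf11*, which encodes RANKL, a factor of osteoclasts and of dendritic cell survival, had 4.90, 15.7 and 20.1 CPM against 34.2 and 43.7 CPM and a log2 fold change of 1.56 (SE 0.52, adjusted p = 0.115). *Fasl*, the ligand of FAS, was scarce, with 11, 43 and 14 counts in WT and 18 and 89 in *Rag1*-/- (0.284, 1.09 and 0.425 against 2.24 and 2.29 CPM), and its log2 fold change was 1.93 (SE 0.66, adjusted p = 0.120). For all 4 the lowest WT library was pool 5. All 4 passed with DESeq2. *Tnfsf9* and *Tnfsf11* turned negative when scaled on leukocyte genes, at -0.75 and -0.30.

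Other ligands did not follow this direction. *Tnfsf18*, the GITR ligand, had 31.4, 35.3 and 19.5 CPM in WT and 25.7 and 13.2 CPM in *Rag1*-/-, with overlapping groups and a log2 fold change of -0.56 (SE 0.36, adjusted p = 0.381). *Tnfsf15* encodes TL1A, the ligand of DR3 and a known activator of ILC2s. It had 4.07, 3.37 and 4.92 CPM against 2.11 and 1.41 CPM, with both *Rag1*-/- libraries under every WT library, and its log2 fold change of -1.23 (SE 0.40, adjusted p = 0.111) did not pass in edgeR but passed with DESeq2. *Tnfsf13b*, the B cell survival factor BAFF, was near 1 CPM or below in all libraries (0.644, 0.557 and 0.820 against 0.994 and 0.411 CPM), with a log2 fold change of -0.02 (SE 0.63, adjusted p = 0.988). *Cd40lg*, made mainly by activated T cells, had 15, 10 and 6 counts across the WT pools against 0 and 3 in *Rag1*-/-. A count of 0 in pool 2 allows up to 0.373 CPM there, which covers the levels of WT pools 6 and 13 (0.387, 0.253 and 0.182 CPM over the WT pools), so that no fold is given.

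The ligands *Tnfsf12* and *Tnfsf13* and the antisense RNA are neighbours on chromosome 11. *Tnfsf12*, which encodes TWEAK, had log2 fold changes of 0.71 against -1.94 for *Tnfsf13* (APRIL) and -0.72 for *Tnfsf13os*, and none was called. Their annotated exons overlap each other or the readthrough gene *Tnfsfm13*, and the library kit did not mark strand, so that their reads could not be fully separated. *Tnfsf13* had only 38, 21 and 15 counts in WT and 1 and 7 in *Rag1*-/-. Over all 17 ligands tested, 7 were higher (3.57% of all genes) and 0 lower (2.16% of all genes) in edgeR. Both *Rag1*-/- libraries were above every WT library in 12 (21.9% of all genes) and below in 3 (24% of all genes). The median log2 fold change of the ligands was 1.56 (-0.30 when scaled on leukocyte genes).

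The 7 costimulatory receptors of lymphocytes all had positive log2 fold changes, with a median of 2.01. Of the 7, 4 were higher (3.57% of all genes) and 0 lower (2.16% of all genes). In 6, both *Rag1*-/- libraries were above every WT library (21.9% of all genes). With the leukocyte scaling the median of the 7 was 0.13 and 5 stayed positive, the others being *Tnfrsf8* (-0.41) and *Tnfrsf14* (-0.78). *Tnfrsf4* (chr4:156013843-156016612), which encodes OX40, had 11.9, 23.5 and 18.6 CPM in WT and 75.3 and 106 CPM in *Rag1*-/-, with a log2 fold change of 2.36 (SE 0.32, adjusted p = 0.0306). *Tnfrsf18* (chr4:156026164-156028895), which encodes GITR and is known to activate ILC2s, had 36.9, 94.6 and 82.5 CPM against 229 and 330.3 CPM and a log2 fold change of 2.01 (SE 0.40, adjusted p = 0.0376). These neighbours on chromosome 4 had the same order of libraries, with WT pool 5 lowest and *Rag1*-/- pool 7 highest. Exons of *Tnfrsf18* share 414 bases with the antisense gene *Gm16008*, whose reads could not be told apart from its own.

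*Tnfrsf25* (chr4:152115934-152120119), which encodes DR3, the receptor of TL1A, had 11.9, 32.9 and 25.1 CPM in WT and 130.1 and 103 CPM in *Rag1*-/-, with a log2 fold change of 2.35 (SE 0.40, adjusted p = 0.0309). *Tnfrsf9* (chr4:150914562-150946102), which encodes the activation marker CD137, had 20.3, 56.7 and 42.5 CPM against 155 and 221 CPM and a log2 fold change of 2.27 (SE 0.42, adjusted p = 0.0333). In both genes the groups were far apart, and the spread within each group was smaller than the distance between them. *Cd27*, the receptor of CD70, had 17.2, 67.6 and 61.6 CPM in WT and 204 and 177 CPM in *Rag1*-/-. Its log2 fold change of 1.99 (SE 0.51, adjusted p = 0.0655) missed the threshold in edgeR and passed with DESeq2, and WT pool 5 was much lower than the other WT libraries. *Tnfrsf14*, which encodes HVEM, was low (0.851, 1.17 and 2.70 against 3.73 and 3.29 CPM) with a log2 fold change of 1.19 (SE 0.55, adjusted p = 0.224). *Tnfrsf8*, which encodes CD30, had 0.644, 0.380 and 1.31 CPM against 4.10 and 1.10 CPM and a log2 fold change of 1.71 (SE 0.74, adjusted p = 0.198). For *Tnfrsf8* pool 7 lay inside the WT range, so that the groups overlapped.

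The TNF receptors differed from each other. *Tnfrsf1b* (chr4:145213463-145246870) encodes TNFR2, which has no death domain and is typical of lymphocytes. It had 108, 238 and 236 CPM in WT and 587 and 694 CPM in *Rag1*-/-, and its log2 fold change was 1.76 (SE 0.36, adjusted p = 0.0395), against -0.21 when scaled on leukocyte genes. *Tnfrsf1a*, which encodes TNFR1, the death domain receptor found on most cell types, had 244, 189 and 198 CPM against 102 and 167 CPM. Both *Rag1*-/- libraries were under every WT library for *Tnfrsf1a*, and its log2 fold change was -0.61 (SE 0.28, adjusted p = 0.216). *Ltbr*, the lymphotoxin β receptor of stromal and myeloid cells, had 45.3, 30.3 and 35.3 CPM against 17.8 and 28.7 CPM and a log2 fold change of -0.62 (SE 0.29, adjusted p = 0.231). The widely expressed *Tnfrsf1a* and *Ltbr* were lowest in pool 2. That library had the lowest sums of keratinocyte, mast cell and endothelial markers and the fewest counts, and the part of these was not tested.

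*Fas* (chr19:34290659-34327770), the death receptor of FASL, had 54.8, 71.4 and 74.7 CPM in WT and 141 and 136 CPM in *Rag1*-/-. Its mean rose from 67.0 ± 10.7 CPM (SD, n = 3) to 138 ± 3.54 CPM (SD, n = 2), with a log2 fold change of 1.08 (SE 0.20, adjusted p = 0.0349) that turned to -1.03 with the leukocyte scaling. The *Rag1*-/- libraries were close to each other for *Fas* and above every WT library. *Tnfrsf10b*, the mouse TRAIL receptor, had 32.7, 45.1 and 37.9 CPM against 67.3 and 61.4 CPM, with groups apart and a log2 fold change of 0.77 (SE 0.21, adjusted p = 0.0718). *Tnfrsf21*, which encodes DR6, had 45.0, 33.4 and 36.0 CPM against 29.1 and 40.4 CPM and a log2 fold change of -0.09 (SE 0.24, adjusted p = 0.862), with overlapping groups. *Ngfr*, the neurotrophin receptor of nerves and follicles, had 36.4, 33.8 and 38.1 CPM against 8.70 and 30.3 CPM and a log2 fold change of -0.81 (SE 0.47, adjusted p = 0.327). Of the 7 death domain receptors, 2 (*Tnfrsf25* and *Fas*) were higher (3.57% of all genes) and 0 lower (2.16% of all genes). Their median log2 fold change was -0.09.

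Receptors of B cells and myeloid cells showed no call. *Cd40*, which marks B cells, dendritic cells and macrophages, had 4.51, 5.80 and 13.8 CPM in WT and 7.70 and 14.1 CPM in *Rag1*-/-, with a log2 fold change of 0.50 (SE 0.53, adjusted p = 0.604). For *Cd40*, WT pool 13 and *Rag1*-/- pool 7 were highest. These libraries also had the highest sums of the 9 myeloid markers (3059 and 2738 CPM, against 1198 to 1752 CPM elsewhere). The part of myeloid cells in the *Cd40* levels was not tested. *Tnfrsf13b*, which encodes TACI, had 68, 86 and 80 counts in WT and 6 and 57 in *Rag1*-/- (1.75, 2.18 and 2.43 against 0.745 and 1.46 CPM) and a log2 fold change of -0.82 (SE 0.49, adjusted p = 0.334). *Tnfrsf13c* and *Tnfrsf17*, the receptors of BAFF and APRIL on B and plasma cells, were at 0.0516 to 1.29 CPM, and *Tnfrsf17* was not tested. *Tnfrsf11a*, which encodes RANK, had 35.3, 29.6 and 27.9 CPM against 31.8 and 21.9 CPM and a log2 fold change of -0.19 (SE 0.23, adjusted p = 0.667), with overlapping groups.

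Decoy receptors bind ligand without signalling. *Tnfrsf22* and *Tnfrsf23*, the mouse TRAIL decoys, had log2 fold changes of 0.93 and 0.47, and *Tnfrsf11b* (osteoprotegerin, the decoy of RANKL) had -0.62, with none called. Their neighbour *Tnfrsf26* had 2.40, 7.68 and 5.68 CPM in WT and 20.1 and 20.1 CPM in *Rag1*-/-, and its log2 fold change of 1.97 (SE 0.46, adjusted p = 0.0512) missed the threshold narrowly in edgeR. *Tnfrsf23* and *Tnfrsf26* share exon bases with an antisense gene. *Tnfrsf12a*, the TWEAK receptor of epithelia and fibroblasts, had 244, 232 and 195 CPM against 101 and 202 CPM, with pool 7 inside the WT range.

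The 4 members of skin appendages all had negative log2 fold changes with TMM scaling, with a median of -0.97. Both *Rag1*-/- libraries were below every WT library in 3 (24% of all genes), and 1 was called lower (2.16% of all genes). All 4 stayed negative with the leukocyte scaling, which cannot serve as a check because it moved the median of all genes to -2.16. *Tnfrsf19* (chr14:60963834-61046855), also named TROY and known from hair follicle stem cells, had 146, 117 and 118 CPM in WT and 43.5 and 51.3 CPM in *Rag1*-/-. Its mean fell from 127 ± 16.8 CPM (SD, n = 3) to 47.4 ± 5.56 CPM (SD, n = 2), a log2 fold change of -1.38 (SE 0.21, adjusted p = 0.0306). *Eda2r* had 8.27, 8.005 and 10.5 CPM against 2.24 and 4.93 CPM and a log2 fold change of -1.22 (SE 0.41, adjusted p = 0.116), and it passed with DESeq2. *Eda*, the ectodysplasin ligand, had 9.56, 8.41 and 8.11 CPM against 4.60 and 5.63 CPM and a log2 fold change of -0.72 (SE 0.29, adjusted p = 0.167). Its receptor *Edar* had 1.83, 1.39 and 2.43 CPM against 1.86 and 1.36 CPM, overlapping groups and a log2 fold change of -0.21 (SE 0.46, adjusted p = 0.818). The 11 keratinocyte markers moved the same way, with 0 positive log2 fold changes, 4 called lower and a median of -1.52, and their part in these values was not tested.

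**Figure D2:**
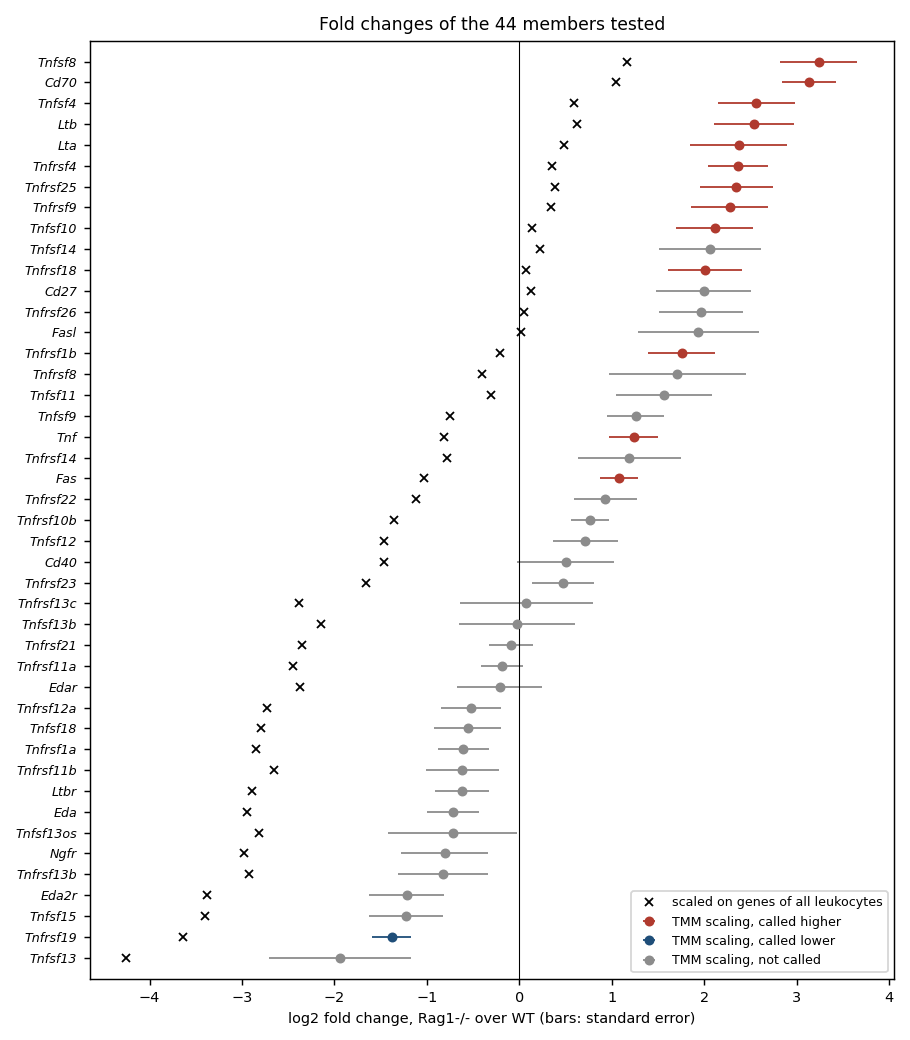
Log2 fold change of *Rag1*-/- over WT for the 44 members tested. Points with bars (standard error) are from edgeR with TMM scaling, red where called higher, blue where called lower and grey where not called, and crosses are the same members scaled on the 30 leukocyte genes. The points run from -1.94 to 3.24, and with the leukocyte scaling 14 members stay above 0, with *Tnfsf8* at 1.17 and *Cd70* at 1.05.

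Among all 26 receptors tested, 6 were higher (3.57% of all genes) and 1 lower (2.16% of all genes). Their median log2 fold change was 0.49 (-1.56 when scaled on leukocyte genes). Ligands and receptors that bind each other were then set side by side in 19 pairs, a list that does not hold every such pair. It left out *Tnfsf14* (2.06) with *Ltbr* (-0.62), for instance, neither of them called. Of the 19, both partners were called higher in 3, *Tnfsf4* with *Tnfrsf4* and *Tnfrsf1b* with each of *Tnf* and *Lta*. In *Cd70* with *Cd27*, *Tnfsf8* with *Tnfrsf8* and *Tnfsf10* with *Tnfrsf10b* the ligand alone was called, and the receptor had a positive log2 fold change that did not pass. The receptor alone was called in *Tnfsf9* with *Tnfrsf9* and *Fasl* with *Fas*. In 4 pairs the called partner and the other had log2 fold changes of opposite sign: *Ltb* (2.54) with *Ltbr* (-0.62), *Tnf* (1.24) with *Tnfrsf1a* (-0.61), *Tnfrsf18* (2.01) with *Tnfsf18* (-0.56) and *Tnfrsf25* (2.35) with *Tnfsf15* (-1.23). In the other 7 pairs neither partner was called, and *Cd40lg* with *Cd40* had an untested ligand.

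The adaptors and regulators downstream of the receptors were described from a list of 30 genes, all tested. Of these, 3 were higher (3.57% of all genes) and 0 lower (2.16% of all genes) in edgeR. An unadjusted p under 0.05 in edgeR was found in 16 (26.4% of all genes). The log2 fold change was positive in 25 (51.4% of all genes), with a median of 0.44 (-1.73 when scaled on leukocyte genes). *Traf1*, an adaptor induced by NF-κB in lymphocytes, had 55.1, 139 and 106 CPM in WT and 505 and 486 CPM in *Rag1*-/-, with a log2 fold change of 2.34 (SE 0.37, adjusted p = 0.0306). *Traf4* had 26.4, 50.5 and 43.5 CPM against 114 and 107 CPM and a log2 fold change of 1.50 (SE 0.29, adjusted p = 0.0357). *Map3k14*, which encodes NIK, the kinase of the noncanonical NF-κB pathway used by OX40, CD27 and the lymphotoxin β receptor, had 55.7, 104 and 92.0 CPM against 181 and 227 CPM and a log2 fold change of 1.32 (SE 0.30, adjusted p = 0.0479). The groups did not overlap in any of the 3. *Ripk3*, the kinase of necroptosis, had 26.1, 27.99 and 26.6 CPM against 51.1 and 52.6 CPM, and its log2 fold change of 0.98 (SE 0.18, adjusted p = 0.0328) was under the fold threshold. When scaled on leukocyte genes *Traf1* stayed positive (0.37), whereas *Traf4* (-0.53) and *Map3k14* (-0.70) did not.

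Many members lie next to each other in the genome. With a gap of at most 200000 bases, 23 members formed 14 neighbouring pairs, and 4 of these had log2 fold changes of opposite sign. On chromosome 1 *Tnfsf4* was called higher (2.56) and *Tnfsf18*, 76244 bases away, had -0.56. On chromosome 4 *Tnfsf8* (3.24) and *Tnfsf15* (-1.23) are 86194 bases apart. On chromosome 6 *Cd27* (1.99) lies 69560 bases from *Ltbr* (-0.62), and *Ltbr* lies 35476 bases from *Tnfrsf1a* (-0.61). *Tnfsf13* and *Tnfsf12*, 465 bases apart, formed the other pair of opposite sign. By contrast, *Ltb*, *Tnf* and *Lta*, which lie within chr17:35194439-35205351, were all called higher with TMM scaling. On the same chromosome *Tnfsf9* (1.26), *Cd70* (3.13) and *Tnfsf14* (2.06) had positive values, and only *Cd70* was called. *Tnfrsf4* and *Tnfrsf18*, 9551 bases apart, were both called.

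**Figure D3:**
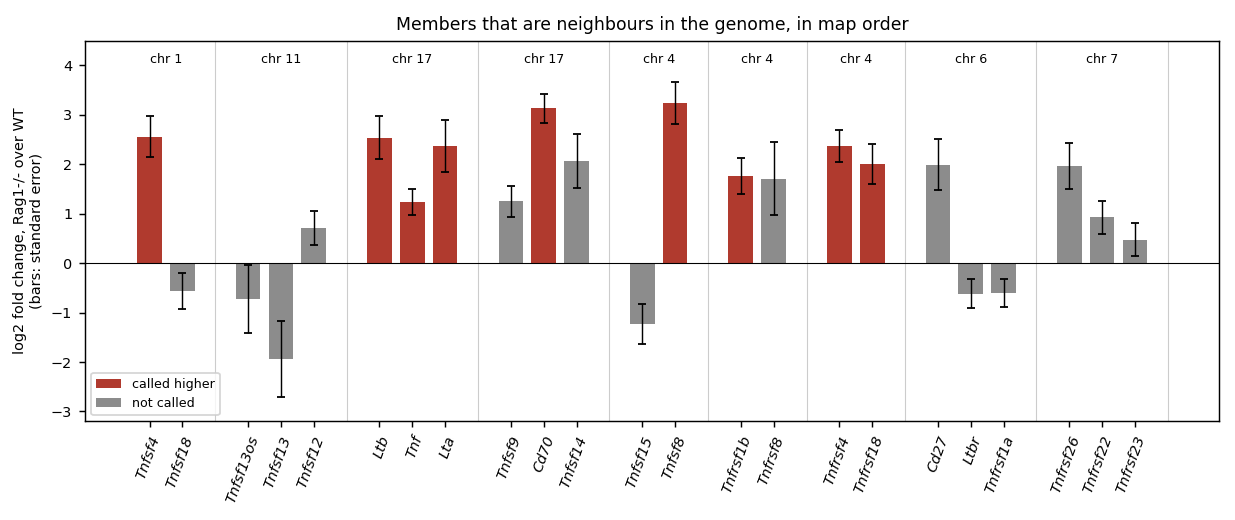
Log2 fold change of *Rag1*-/- over WT (edgeR, TMM scaling, bars are the standard error) for the 23 members that lie within 200000 bases of another member, in map order within each block. Red bars were called higher and grey bars were not called. *Tnfsf4* and *Tnfsf8* stand above 0 beside *Tnfsf18* and *Tnfsf15* below 0, while the blocks of *Ltb*, *Tnf* and *Lta* and of *Tnfrsf4* and *Tnfrsf18* are red throughout. All of these values are lower when scaled on leukocyte genes, where *Tnf* is at -0.81.

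Levels were compared between members as CPM per kilobase of annotated exons. In the WT libraries *Tnfrsf12a* led the order with a mean of 116 CPM per kilobase, followed by *Tnfrsf1a* with 81.1, and they held ranks 1 and 2 in each WT library. *Tnfrsf1b* (50.8) and *Tnfrsf18* (46.8) came next in the means, and their WT libraries overlapped. In the *Rag1*-/- libraries *Tnfrsf18* (184) and *Tnfrsf1b* (168) led, and they swapped places between pool 2 and pool 7. *Ltb* (88.0) was the highest ligand there and had rank 4 in both libraries. *Tnfrsf12a* was at rank 5 by the mean (78.2), with rank 10 in pool 2 and rank 3 in pool 7. *Cd27* (81.9), *Tnfrsf9* (69.1), *Fas* (67.1) and *Tnfrsf4* (66.2) had levels whose order differed between pools 2 and 7. *Cd70* moved from rank 25 in the WT means (2.78) to rank 15 (24.0), and *Tnfsf8* from rank 22 (4.02) to rank 13 (37.6).

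Because 22 of the leukocyte genes were higher in the same libraries as the 13 members called higher, levels were also expressed per 1000 counts on the 30 leukocyte genes. On this scale, 5 of the 44 members were above every WT library in both *Rag1*-/- libraries, namely *Cd70*, *Tnfsf8*, *Tnfsf4*, *Ltb* and *Tnfrsf25* (0.694% of all genes), and 27 were below every WT library (86.5% of all genes). *Cd70* had 1.69, 1.06 and 1.00 per 1000 leukocyte counts in WT and 2.70 and 2.47 in *Rag1*-/-. *Tnfsf8* had 10.2, 8.98 and 4.90 against 23.2 and 12.8. For both genes the lowest *Rag1*-/- library was above the highest WT library, by a smaller factor than in CPM. *Tnfsf4* had 2.00, 2.03 and 1.94 against 3.44 and 2.55, *Ltb* had 9.81, 11.8 and 12.0 against 15.1 and 19.4, and *Tnfrsf25* had 11.2, 13.1 and 9.89 against 15.6 and 14.2. *Cd27* was inside the WT range, with 16.1, 26.9 and 24.3 in WT and 24.5 and 24.5 in *Rag1*-/-. *Fas* had 51.3, 28.4 and 29.4 against 16.9 and 18.8 and *Tnfrsf19* 137, 46.5 and 46.4 against 5.21 and 7.09, both without overlap. Among the 13 members called higher in CPM, WT pool 5, the library with the lowest leukocyte sum, was the lowest WT library in all 13. It was also the lowest WT library in 23 of the 27 members with positive log2 fold changes and in 26 of the 44 tested. The share over all genes was not counted. Of the 13, pool 2 was above pool 7 in 7 and below it in 6.

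**Figure D4:**
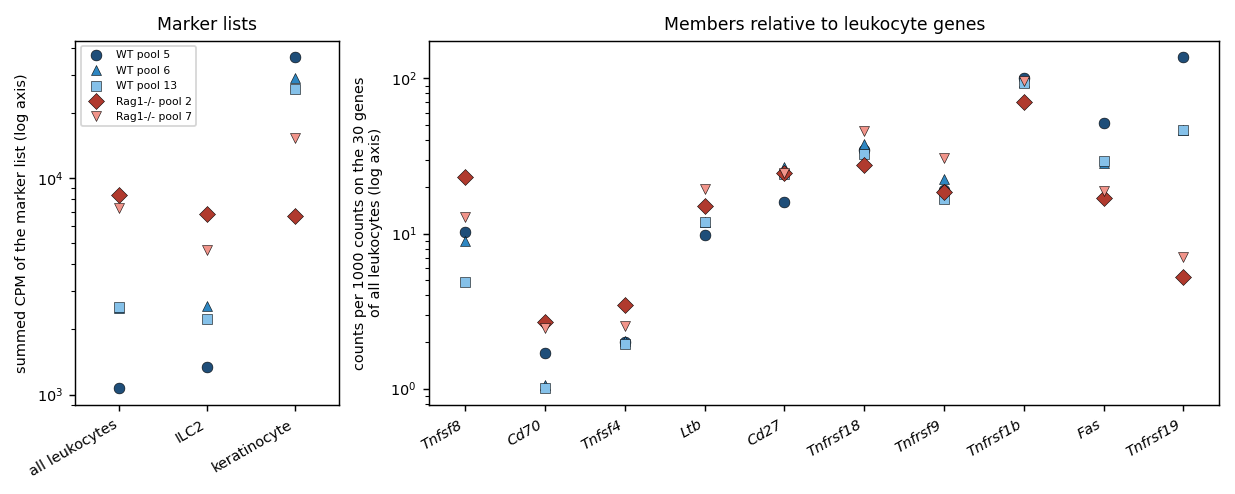
Left, summed CPM of the markers of all leukocytes, ILC2s and keratinocytes in each library (log axis). Right, counts of 10 members per 1000 counts on the 30 leukocyte genes in each library (log axis), with WT pools in blue and *Rag1*-/- pools in red. *Cd70*, *Tnfsf8*, *Tnfsf4* and *Ltb* keep both red symbols above every blue one, *Cd27* does not, and *Fas* and *Tnfrsf19* have both below.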

How the data were processed

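RNA of 5 libraries was sequenced as single reads of poly(A) RNA with a kit that does not mark strand. The authors aligned reads with STAR 2.5 to GRCm38 and counted them per gene with featureCounts 1.5.0-p1, and the deposited counts are not normalized. The annotation release differs between the sources, and the processing notes also name GRCm39, but the coordinates of all 46 members overlapped their GRCm38 entries. A second deposited table holds a normalized signal that the authors made with DESeq2 1.8.2. The authors' gene length was not used.

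Here genes were kept with filterByExpr, scaled with TMM and compared with the quasi-likelihood test of edgeR 4.0.16 (R 4.3.3, Benjamini-Hochberg over 19011 genes), called at an adjusted p below 0.05 and a log2 fold change beyond 1 in either direction. Alternatives were DESeq2 1.42.0, limma 3.58.1 on log2 of the signal plus 1, RLE scaling, library size alone, a robust fit, scaling on 30 leukocyte genes, a minimum of 10 counts per library, no filter, and each library left out. An exact permutation of 3 against 2 libraries has 10 splits and cannot go below 0.1. Counting error limits the precision of levels near 3 counts.

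The members and lists were chosen with earlier results of these data known. Members named with full values were those called and those with a role in ILC2s, costimulation or skin. CPM is printed for each, and counts where they are low. Marker genes of 11 cell types served as checks.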

Additional observations from a re-analysis of the deposited data

How the results depend on the processing

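The 13 members called higher became 19 of 44 with DESeq2 (7.4% of all genes) and 18 of 46 without the filter (1157 of 29909 genes). They became 16 of 39 with at least 10 counts in every library (856 of 14121 genes) and 14 in the robust fit (707 of 19011 genes). The count was 13 with RLE scaling (631 of 19011 genes), library size alone (634 of 19011 genes) and limma on the deposited signal (619 of 18996 genes). It was also 13 with the adjusted p-value alone. DESeq2 added *Cd27*, *Fasl*, *Tnfrsf26*, *Tnfsf9*, *Tnfsf11* and *Tnfsf14* as higher and *Eda2r* and *Tnfsf15* as lower. The member called lower became 3 of 44 with DESeq2 (7.6% of all genes) and 2 of 46 without the filter (1488 of 29909 genes). It became 17 with the leukocyte scaling (69% of all genes). With the leukocyte scaling 0 members and 0 adaptors were higher in edgeR (0.0842% of all genes). Standard errors were larger in that fit, and 19 adaptors were lower (69% of all genes). The members' median of 0.85 turned to -1.24, since that scaling moved the median of all genes to -2.16.

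With 1 library left out, the members called ranged from 0 to 8 higher and from 0 to 5 lower, and the members' median from 0.76 to 1.09. All genes called ranged from 0 to 837 higher and from 0 to 1577 lower, and adaptors from 0 to 2 higher. Calls came only without *Rag1*-/- pool 7, where *Lta*, *Tnf*, *Tnfrsf9*, *Tnfrsf18* and *Tnfrsf1b* were lost and *Eda2r*, *Ngfr*, *Tnfrsf12a* and *Tnfrsf1a* became lower. The smallest adjusted p-value in edgeR was 0.0503, 0.0589 and 0.108 without WT pools 5, 6 and 13 and 0.0632 without *Rag1*-/- pool 2. *Cd70* kept a log2 fold change of 2.97 to 3.25. Leaving out a *Rag1*-/- library leaves 1, assumed to vary like the WT libraries. Over all genes, the 679 called higher became 1216 with DESeq2, 1157 without the filter and 16 with the leukocyte scaling, and the 411 called lower became 1248, 1488 and 13118, or 641 with at least 10 counts in every library.

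With the leukocyte scaling the log2 fold change turned negative for *Cd40* (-1.47), *Fas* (-1.03), *Tnf* (-0.81), *Tnfrsf10b* (-1.35), *Tnfrsf13c* (-2.38), *Tnfrsf14* (-0.78), *Tnfrsf1b* (-0.21), *Tnfrsf22* (-1.12), *Tnfrsf23* (-1.66), *Tnfrsf8* (-0.41), *Tnfsf11* (-0.30), *Tnfsf12* (-1.46) and *Tnfsf9* (-0.75). With 1 library left out the sign was not stable for *Cd40* (-0.10 to 1.13), *Edar* (-0.38 to 0.0036), *Tnfrsf13c* (-0.19 to 0.81), *Tnfrsf21* (-0.44 to 0.16) and *Tnfsf13b* (-0.62 to 0.52), none of them called. The cause was not tested. No paired analysis was possible because the groups share no replicate numbers. Depth limits *Cd40lg*, *Tnfrsf17* and *Tnfsf13*, with 1 count or none in *Rag1*-/- pool 2.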
